A study of Mus musculus with 9 samples.

Results

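The accessible regions farthest from any assigned gene were examined in control mouse embryos. They are the regions that lie more than 300 kb from the transcription start site (TSS) of the coding gene they were assigned to. Of 17164 distinct regions in the control list, 647 met this rule (3.77%, 95% Wilson interval 3.49 to 4.06), out of 15408 regions assigned to a coding transcript. They are called far regions here, because the name gene desert held only for some of them. Hearts and pharyngeal mesoderm were taken at embryonic day 8.75, at 6 somites, for ATAC-Seq, which uses the Tn5 transposase to tag open DNA. The series has 9 libraries in 3 groups of 3, namely wild-type control, Isl1 knockout (Isl1-/-) and Isl1Cre+/-/ Brg1fl/fl embryos. The Cre allele is driven by Isl1, so that it acts on Brg1 only in cells of the Isl1 lineage, and the dissected tissue mixes several cell types. Only the control group was used, as 1 list of regions common to its libraries. The mutant groups were not analysed here.

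Open DNA far from a TSS often marks enhancers, which are short elements that bind transcription factors and act on a gene across a loop of chromatin. Genes that direct development tend to lie beside long stretches without other genes, and their enhancers can be spread over these stretches. CTCF, a zinc-finger protein, binds a long motif and holds many such loops in place. Isl1, a LIM-homeodomain factor, marks the progenitors of the second heart field in the pharyngeal mesoderm, and Brg1 is the ATPase of a chromatin remodeling complex.

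Sequences are shown from the 5 stretches between neighbouring coding TSSs that held the most far regions, as examples of such regions. For 4 of them the central 300 bp of the widest far region follow, read from NCBIM37 (mm9) on the + strand. Capitals mark the letters CAGCTG of an E-box, bound by basic helix-loop-helix factors, and TGACAG of the MEIS homeodomain factors, read as CTGTCA on the other strand. The widest region of the fifth stretch, between Igsf11 and Lsamp, holds a RefSeq start of the coding gene Lsamp and is given without its sequence. The Dsel region shown holds a RefSeq start of the predicted gene Gm32810, at chr1:114313495 on the - strand, just past the printed bases.
Nr2f1 region, chr13:79049132-79049431: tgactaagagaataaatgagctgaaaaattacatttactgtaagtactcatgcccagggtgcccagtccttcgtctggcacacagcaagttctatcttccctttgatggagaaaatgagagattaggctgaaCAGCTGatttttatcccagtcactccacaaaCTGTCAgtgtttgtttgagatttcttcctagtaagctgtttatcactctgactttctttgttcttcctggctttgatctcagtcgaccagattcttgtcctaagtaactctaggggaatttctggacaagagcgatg
Dsel region, chr1:114313190-114313489: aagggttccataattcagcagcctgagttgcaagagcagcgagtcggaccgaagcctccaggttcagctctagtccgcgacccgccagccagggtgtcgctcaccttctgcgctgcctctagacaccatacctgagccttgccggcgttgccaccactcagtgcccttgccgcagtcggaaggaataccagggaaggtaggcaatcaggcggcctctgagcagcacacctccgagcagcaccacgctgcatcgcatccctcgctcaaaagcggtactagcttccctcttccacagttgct
Tenm4 region, chr7:102837159-102837458: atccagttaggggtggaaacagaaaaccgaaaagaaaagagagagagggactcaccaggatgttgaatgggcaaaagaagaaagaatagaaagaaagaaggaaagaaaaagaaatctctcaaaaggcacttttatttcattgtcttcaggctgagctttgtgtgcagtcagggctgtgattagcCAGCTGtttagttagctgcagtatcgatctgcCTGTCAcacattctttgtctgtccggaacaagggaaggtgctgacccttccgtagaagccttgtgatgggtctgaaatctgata
Mettl15 region, chr2:108667719-108668018: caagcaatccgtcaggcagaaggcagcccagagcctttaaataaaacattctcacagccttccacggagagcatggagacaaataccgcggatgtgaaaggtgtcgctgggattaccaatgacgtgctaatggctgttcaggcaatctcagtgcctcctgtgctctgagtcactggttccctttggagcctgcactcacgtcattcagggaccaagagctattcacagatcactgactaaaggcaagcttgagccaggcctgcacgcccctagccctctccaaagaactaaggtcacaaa

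The Nr2f1 and Tenm4 regions each hold the E-box and the MEIS motif within these bases, and the Dsel and Mettl15 regions hold neither. The Nr2f1 region lies 711148 bp upstream of Nr2f1, a nuclear receptor, and spans 1161 bp. The Tenm4 region lies 482445 bp upstream of Tenm4, a teneurin that works in cell adhesion, and spans 2094 bp. The Dsel region lies 551845 bp upstream of its gene and has 51.2% GC and 3.24 CpG per 100 bp, and the Mettl15 region 450578 bp downstream of its gene. Sites for CTCF are shown as well because 3 of these stretches hold a match to its motif, which is in capitals inside 30 bases of the + strand.
Lsamp region, chr16:40739291-40739320: catcacgtaCCAGCAGAGGGCgccattcac
Mettl15 region, chr2:108530421-108530450: cacctgatgCCAGCAGGGGGCagcaaatag
Tenm4 region, chr7:102638344-102638373: ttgaagcaaCCACTAGATGGCgctgagatt

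The name gene desert was checked against the GENCODE annotation of the same build. The nearest annotated coding TSS lay more than 300 kb away for 450 of the 647 far regions (69.6%, interval 65.9 to 73.0). The nearest TSS of any annotated gene, small noncoding RNA genes included, lay that far away for only 138 (21.3%). For 384 (59.4%) the midpoint was outside any gene and more than 300 kb from every coding TSS of this annotation. RefSeq starts that it lacks change this for some. The 384 include the 6 regions assigned to Lsamp, which lie downstream of a RefSeq start of Lsamp given below. Among all far regions 473 (73.1%) were intergenic, 145 (22.4%) were in an intron, 24 (3.71%) lay within 1 kb of a TSS and 5 were in an exon. In the band from 100 to 300 kb the intergenic share was lower at 61.0% (58.4 to 63.5). The midpoint lay inside a coding gene for 153 far regions (23.6%), and in 107 of these that gene was the assigned one. The very long genes Macrod2, which encodes a macrodomain protein, and Ptprd, a receptor tyrosine phosphatase, held 15 and 11 of them.

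Some far regions sat on a start that the assignment had not used. A GENCODE coding TSS lay within 10 kb of 19 of them, and 8 of these belonged to the assigned gene, as in Inpp4b, Sgcd, Opcml and Dlg2. In such genes the deposited distance ran to another TSS of the same gene. The widest far region, with 3140 bp, was assigned to Tmem261 at 1171634 bp but lay 60 bp from a TSS of Ptprd. The Sgcd region was 1771 bp wide with 60.8% GC, and the Opcml region 1596 bp with 59.5% GC. Both were wider and richer in GC than 3 in 4 of the far regions.

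The promoter windows of RefSeq, which cover 250 bases before to 50 after a start in assembly GRCm38.p6, were then searched by sequence in every region. Of the far regions 15 (2.32%, 1.41 to 3.79) shared at least 100 31-mers with a window, compared with 4.25% (3.31 to 5.45) at 100 to 300 kb and 80.5% within 1 kb. Predicted genes with Gm symbols were the best match for 13, and Lsamp and Robo2 for the other 2. A whole window was found in 8 of the 15. In 7 of the 15 more than 50% of the 31-mers recur in the genome, so that such a match need not mark a start at that place. Lsamp encodes a cell adhesion protein of the limbic system. Its RefSeq start matched chr16:39984477 inside the far region chr16:39984106-39985529, which was assigned to Igsf11 at 1082359 bp. That region was 1424 bp wide with 56.6% GC and 4.00 CpG per 100 bp. Robo2, a receptor for Slit guidance cues, had a RefSeq start at chr16:75093015, inside a region of 1758 bp assigned to Lipi at 493127 bp. No coding TSS of the GENCODE set used here lay within 300 kb of either region. The far region assigned to Robo2 itself lay 390505 bp upstream by the deposited distance. It lies downstream of the RefSeq start of Robo2, which is on the - strand.

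Read against the amount of genome, accessible regions were sparse at these distances but were present to beyond 1000 kb. With the distance taken to the nearest GENCODE coding TSS, and all 17164 regions counted, 16.4% of the sequenced genome lay more than 300 kb away and held 813 regions, or 4.74%. The density there was 1.94 per Mb (95% Poisson interval 1.81 to 2.08). It was 3.16 (3.00 to 3.32) at 100 to 300 kb, 3.66 (3.55 to 3.77) at 10 to 100 kb and 117 within 1 kb. Within the far range it was 2.32 per Mb (2.05 to 2.62) at 300 to 400 kb, 2.22 at 400 to 500 kb, 1.95 at 500 to 750 kb, 1.78 at 750 to 1000 kb and 1.02 (0.78 to 1.30) above 1000 kb. The intervals of neighbouring steps between 300 and 1000 kb overlap, while that above 1000 kb lies below all the others. Intervals and limits here cover counting error over regions only. The list carries no value per embryo or library, its read depth is unknown, and a region missed in 1 library is not in it.

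**Figure D1:**
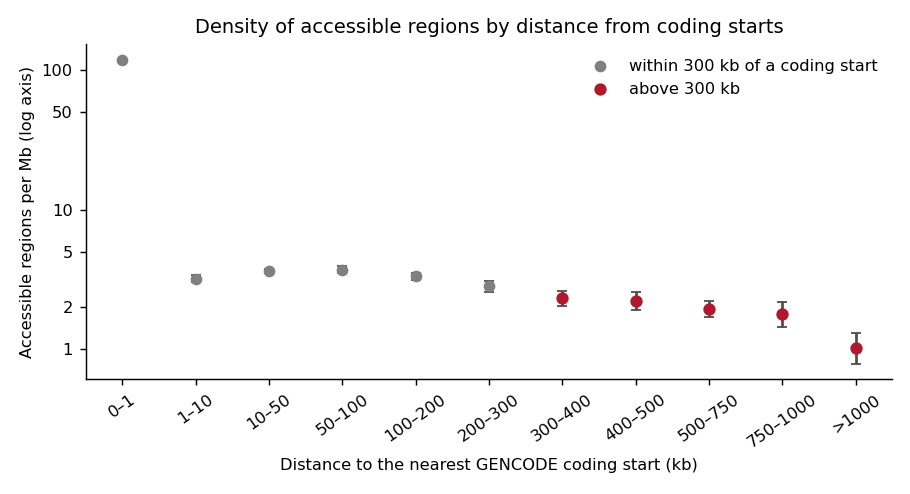
Accessible regions per Mb of sequenced genome (log axis) against the distance to the nearest GENCODE coding TSS in kb, for all 17164 regions; bars are 95% Poisson intervals and red points lie above 300 kb. Beside the peak of 117 per Mb within 1 kb, the values fall from 3.71 at 50 to 100 kb to 1.02 above 1000 kb.

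By the deposited distance, 224 far regions lay at 300 to 400 kb, 119 at 400 to 500 kb, 250 at 500 to 1000 kb and 54 beyond 1000 kb, with a median of 480829 bp. Upstream of the gene were 294 (45.4%, 41.6 to 49.3) and downstream 353. The region farthest from its gene lay 1811664 bp upstream of Dsel. It was followed by regions of Nudt12 (1687303 bp), Lrrtm1 (1639803 bp), A330008L17Rik (1522995 bp) and Slitrk5 (1507679 bp). Lrrtm1 and Slitrk5 encode leucine-rich repeat proteins of the synapse. Those of Lrrtm1, A330008L17Rik and Slitrk5 lay nearer to another annotated coding TSS. Just inside the limit were a region 300224 bp upstream of Pcdh20 (783 bp wide) and one 300439 bp upstream of Dmd (1043 bp). Just outside were those of Tsn at 298154 bp (1083 bp) and Lyplal1 at 297998 bp (905 bp).

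Far regions were close in width to those at 100 to 300 kb but lower in GC. Their median width was 904 bp (interval 872 to 928, quartiles 756 and 1082.5 bp), against 920 bp (902 to 936) at 100 to 300 kb and 946 bp (936 to 956) at 10 to 100 kb. The difference from the 100 to 300 kb band went lower on 11 and higher on 9 of 20 chromosomes, a mean of -13.2 ± 87.2 bp (SD, n = 20 chromosomes). Against 10 to 100 kb it went lower on 14. After the Ptprd start of 3140 bp, wide regions were assigned to Btbd3 (2709 bp), Gtdc1 (2375 bp) and Kif16b (2333 bp, in an intron of Macrod2). Median GC was 43.3% (42.9 to 43.8), 45.6% (45.2 to 45.9) and 48.3% (48.1 to 48.6) in the same order. It was lower in far regions on 19 of 20 chromosomes against 100 to 300 kb, by a mean of -2.42 ± 1.45 percentage points (SD), and on 20 of 20 against 10 to 100 kb. CpG sites numbered 0.81 per 100 bp (0.76 to 0.85), compared with 1.06 (1.02 to 1.11) at 100 to 300 kb, and 402 far regions (62.1%) had at most 1 per 100 bp. Within 1 kb of a TSS, where CpG islands are common, 0.40% of regions did.

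The DNA around the regions was lower in GC as well. In far regions the central 300 bp held a median of 46.7% GC and the windows 3 kb to each side 38.8%. At 100 to 300 kb these were 48.7% and 41.2%. The rise from flanks to centre had a median of 8.17 percentage points (7.5 to 9.0) in far regions, 7.67 (7.17 to 8.0) at 100 to 300 kb and 7.83 (7.50 to 8.17) at 10 to 100 kb. These intervals overlap, so that the bands differed in level while no difference in the rise could be made out. The centre was above its flanks in 587 of 647 far regions (90.7%).

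**Figure D2:**
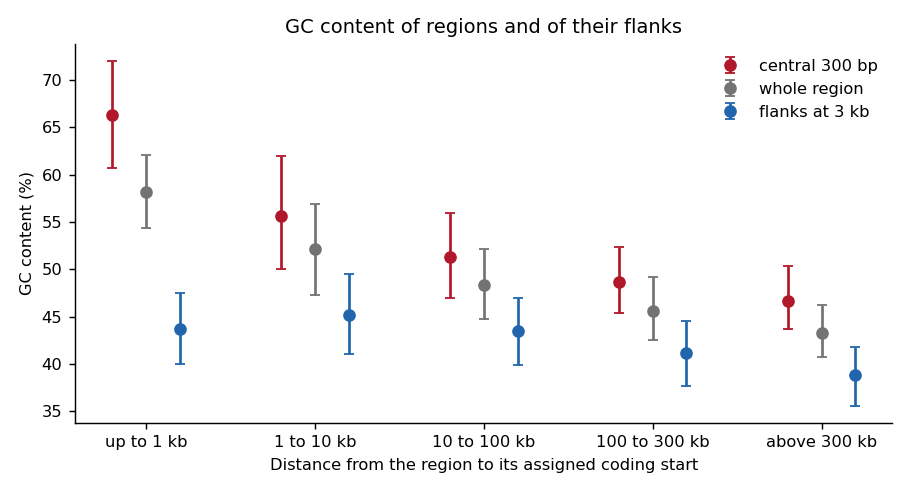
GC content in percent of the central 300 bp (red), the whole region (grey) and windows 3 kb to each side (blue), by distance from the assigned coding TSS; points are medians over regions and bars the quartiles. All 3 measures are lowest above 300 kb, where the medians are 46.7, 43.3 and 38.8%.

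Between neighbouring coding TSSs there were 687 intervals longer than 600 kb, which have a core more than 300 kb from both ends. Intervals with a large share of unsequenced bases were left out of this count and of all later counts of intervals. A region lay in the core of 336 of them (48.9%, 45.2 to 52.6). Of the far regions, 555 fell into 269 of these intervals, and the 5 fullest held 43 (6.65%). The interval between Igsf11 and Lsamp on chromosome 16 held 10, over 2631 kb. From left to right 4 were assigned to Igsf11, an immunoglobulin-type adhesion gene, at 400902, 415134, 766210 and 1082359 bp. The other 6 were assigned to Lsamp, from 931024 down to 564482 bp upstream of the assigned TSS. These 6 lie between that TSS and the RefSeq start of Lsamp at chr16:39984477, on the + strand. They are thus downstream of the RefSeq start, which splits this interval. Widths of the 10 regions ran from 590 to 1424 bp and GC from 39.0 to 56.6%. The highest of both was in the region that carries the RefSeq start of Lsamp. The narrowest carries the CTCF match shown above.

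The interval between Nr2f1 and Arrdc3 on chromosome 13 held 9, over 2684 kb, and 8 were assigned to Nr2f1. Dsel to Cntnap5a on chromosome 1, 3820 kb long, held 8 far regions and no other region. They form a set of 3 at 515 to 591 kb from Dsel, 1 alone at 1812 kb, and 4 on the side of Cntnap5a, a neurexin relative. The interval between the predicted genes Gm9934 and Gm9966 on chromosome 7 held 8, of which 6 were assigned to Tenm4 and 2 to Fam181b. Kcna4 to Mettl15 on chromosome 2 held 8, with 3 assigned to Kcna4, a potassium channel, and 5 to Mettl15, a methyltransferase. Over the 5 intervals GC ranged from 32.7 to 56.6% and width from 520 to 2094 bp.

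**Figure D3:**
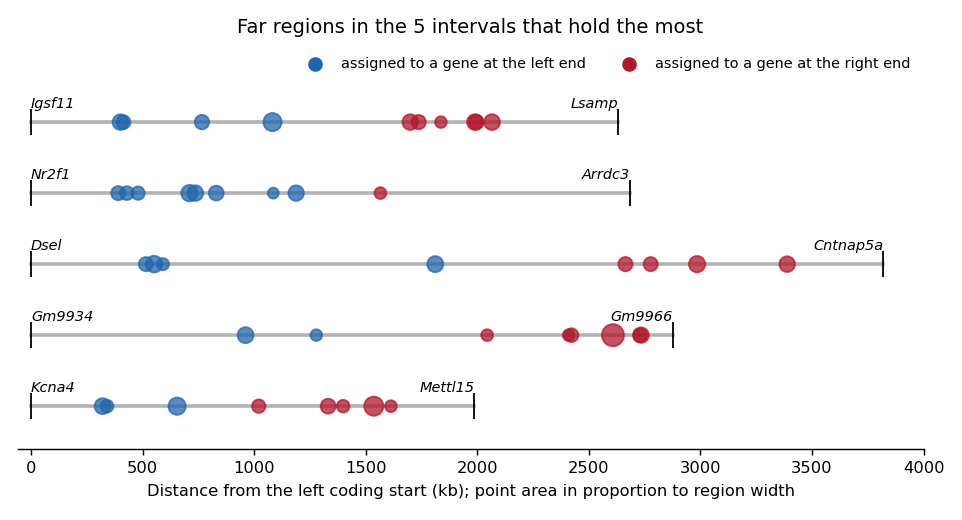
Positions of the 43 far regions in the 5 intervals between coding TSSs that hold the most, in kb from the left TSS; ticks are the TSSs, point area is in proportion to width, and color gives the side of the assigned gene. In the Gm9934 to Gm9966 interval the assigned genes are Fam181b (left) and Tenm4 (right). The regions are spread along the intervals, and 8 of the 9 in the Nr2f1 interval lie on the side of Nr2f1.

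The intervals were grouped by the genes at their ends. Developmental transcription factors flanked 83, guidance or adhesion genes 122 others, and neither 482. Predicted genes count as ends, so that the intervals with the far regions of Nr2f2 and with those of Tenm4 were placed under neither. A core region was present in 57.8% (47.1 to 67.9), 67.2% (58.5 to 74.9) and 42.7% (38.4 to 47.2) of these groups, in the same order. Per Mb of core, the order changed. Intervals beside a transcription factor had 3.12 regions per Mb (2.59 to 3.73), those beside a guidance or adhesion gene 1.90 (1.67 to 2.15) and the rest 1.77 (1.61 to 1.94). The last 2 intervals overlap, and the value beside transcription factors lies above both. Without the interval between Zeb2, a zinc-finger repressor, and Acvr2a, which alone had 14 core regions, it was 3.00 per Mb (2.46 to 3.63). GC moved with the groups, with a median of 40.3% beside transcription factors, 37.7% beside guidance or adhesion genes and 39.0% in the rest. The guidance or adhesion group was not split by GC. In the 229 intervals with the lowest GC the densities beside transcription factors and in the rest were 3.21 (2.30 to 4.38) and 1.28 (1.09 to 1.5) per Mb. They were 3.49 (2.42 to 4.88) and 2.08 (1.77 to 2.42) in the middle 229. In the highest 229 they were 2.83 (2.07 to 3.78) and 2.53 (2.09 to 3.03). The Poisson intervals were thus apart only at the lowest GC and just touched in the middle.

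The 647 far regions were assigned to 344 genes. A single far region was assigned to 196 of them (57.0%), 72 had 2, and 20 had 5 or more and held 124 regions (19.2%). For 233 genes (67.7%, 62.6 to 72.5) a region also lay within 1 kb of the assigned TSS, a share that overlaps the 66.4% (63.3 to 69.3) of genes with regions at 100 to 300 kb. For 24 genes every region was far. Kif16b, a kinesin motor, had the most with 10, at 312 to 946 kb downstream, and 8 of these lay inside Macrod2. Flrt3, an adhesion protein that binds Unc5 receptors and latrophilins, had 7, at 386 to 784 kb upstream, and these 7 lay inside Macrod2 too. In the same way 5 of the 6 regions of Tmem261 lay inside Ptprd, which had 6 of its own, at 332 to 1414 kb.

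Got2, a mitochondrial aminotransferase, had 8, upstream at 342 to 1502 kb, and none lay in a coding gene. Epha7, an ephrin receptor, had 7, of which 5 were upstream and 2 downstream, at 307 to 842 kb. Acvr2a, an activin receptor, had 6, upstream at 333 to 1446 kb. Adgrl3, a latrophilin, had 3 upstream and 3 downstream, the latter inside the gene. Dcc, the netrin receptor, had 3 upstream and 3 inside the gene, at 345 to 756 kb. Cntnap5a, Lsamp, Tenm4 and A330008L17Rik had 6 each.

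Genes of axon guidance and cell adhesion were a larger share of the assigned genes than in any nearer band. By symbol patterns, 50 of the 344 (14.5%, 11.2 to 18.7) were in this family, against 7.36% (5.87 to 9.20) at 100 to 300 kb, 3.09% (2.50 to 3.82) at 10 to 100 kb and 1.79% (1.55 to 2.06) of all 10460 coding genes with a region. They held 136 of the far regions (21.02%). Beside the genes above they include Nrxn3 and Pcdh9 with 5 each, Efnb2, Cntn5, Itga1, Lrrc4c and Ncam2 with 4 each, and Robo1 and Cdh11 with 3 each. Among the intervals longer than 600 kb, those with a guidance or adhesion gene and no developmental transcription factor at an end had a median length of 1349 kb. Those with neither this kind of gene nor a transcription factor at an end had 902 kb. Some far regions lay inside the long assigned gene, as did all 6 of Ptprd and all 5 of Nrxn3, while the 7 of Epha7 lay in no coding gene. The part of interval length and gene length in the share was not tested. The pattern counts every symbol of a kind, whether or not the gene is expressed in this tissue, and it was chosen with earlier results known.

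Developmental transcription factors showed no such step from the next band. There were 18 (5.23%, 3.34 to 8.12), compared with 7.47% (5.96 to 9.31) at 100 to 300 kb and 2.99% (2.68 to 3.34) among all genes with a region. Of these 4 were homeobox genes, among them Meis1, Nkx6-1 and Prox1, with 1 far region each. Secreted signals and their receptors numbered 10 (2.91%), led by Acvr2a, by Ntrk3, a neurotrophin receptor, with 4, and by Erbb4 and Tgfbr2 with 3 each. Ion channels and neurotransmitter receptors numbered 12 (3.49%), led by Grm7, Kcna4 and Kcnj2 with 3 each. The remaining 254 (73.8%) were in none of the 5 families.

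**Figure D4:**
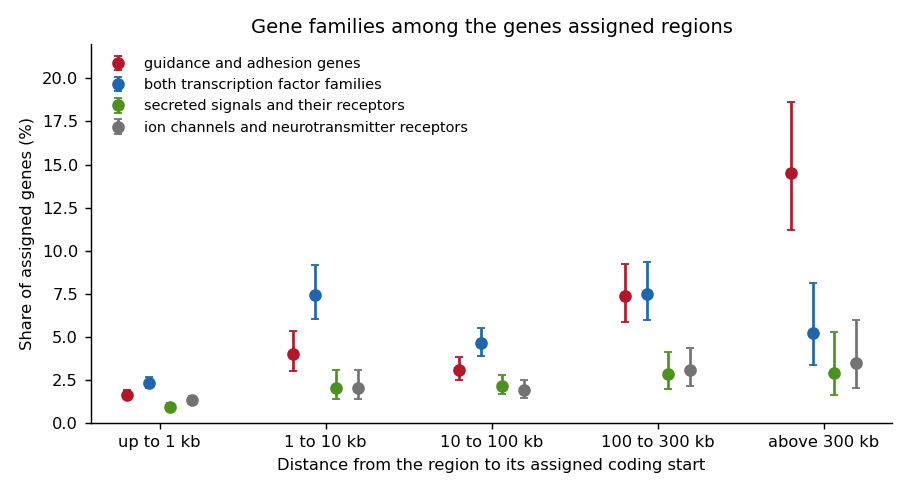
Share in percent of the coding genes assigned a region in each distance band that belong to a family; bars are 95% Wilson intervals and the transcription factor families are joined. Guidance and adhesion genes reach 14.5% above 300 kb from 7.36% at 100 to 300 kb, while transcription factors are at 5.23% and 7.47%.

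Of 78 regulators of heart and pharyngeal development listed, 53 had a region of any kind and 6 a far one. Nr2f1 and Nr2f2, the COUP nuclear receptors, held 8 and 5 of the 18 far regions of this list. Those of Nr2f1 lay upstream at 391918, 430516, 480829, 711148, 737547, 831283, 1086822 and 1189264 bp. Their GC ran from 32.7 to 41.7%, which is below the median of all far regions in each, and 4 of them hold the E-box CAGCTG at the centre. Those of Nr2f2, which acts in atrial and venous identity, lay upstream at 422686, 479324, 605268, 657048 and 698071 bp. Their GC ran from 44.1 to 49.9% and their width from 1024 to 1307 bp, which is above both medians in each. Neither gene had a region within 1 kb of its assigned TSS.

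Dach1, a transcriptional corepressor, had 2, at 610049 bp downstream and 420274 bp upstream. Mef2c, a MADS-box factor of the second heart field, had 1 of 1505 bp at 372489 bp upstream, with no TSS of any annotated gene closer. Meis1, a homeodomain factor, had 1 at 460819 bp downstream. All 18 of these regions were intergenic. Of 15 marker genes of the tissue, 6 had any region (Isl1 9, Mef2c 5, Tbx20 4, Fgf10 4, Hand2 1 and Gata4 1), 5 of them at the TSS. Nkx2-5, Tbx1, Tbx5, Hand1, Fgf8, Tnnt2, Myh6, Myl7 and Actc1 had none in the list.

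Short motifs were counted in the central 300 bp of the far regions and in windows of that length centred 3 kb to each side, on both strands, with overlapping matches of different motifs allowed. For 6 of 21 motifs the interval at the centre lay above that of the flanks, for 15 the intervals overlapped and for none did it lie below. The E-box CAGCTG was in 23.8% of centres (20.7 to 27.2) and 8.89% of flanks (7.46 to 10.6). The MEIS motif TGACAG was in 25.0% (21.9 to 28.5) and 17.5% (15.5 to 19.6). The motif of the TEAD factors, AGGAATG, which take the signal of the Hippo pathway to DNA, was in 13.6% (11.2 to 16.5) and 6.72% (5.48 to 8.22). The SOX motif ACAATGG was in 10.5% (8.38 to 13.1) and 5.26% (4.17 to 6.61). GGGCGGG, the GC box of SP and KLF factors, was in 4.48% (3.14 to 6.36) and 0.54% (0.26 to 1.11).

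Over the centres of all 17164 regions these shares were 19.5% for the E-box, 18.5% for MEIS, 6.04% for TEAD, 4.31% for SOX and 31.2% for the GC box. At least 1 of the 6 motifs, CTCF included, was in 57.5% of far centres (53.7 to 61.3) and in 33.7% of flanks (31.2 to 36.3). The 6 were picked because their centres lay above these same flanks. The direction of this difference was thus set by the choice, and it adds no support. GATA, with AGATAA, was in 18.9% of centres and 22.9% of flanks, the homeobox motif TAATTA in 12.8% and 13.1%, and CTAATG, searched for Isl1, in 15.3% and 14.99%. GC was higher at the centre than in the flanks, and its part in these results was not tested. Among the 60 far regions whose centre was no higher in GC than its flanks, the intervals overlapped for all 21 motifs, and this number of regions gives wide intervals. The E-box was in 16.7% of these centres (9.31 to 28.0) and 12.5% of their flanks, SOX in 16.7% (9.31 to 28.0) and 5.83%, and TEAD in 10.0% (4.66 to 20.1) and 5.83%. Against the band from 100 to 300 kb the intervals overlapped for all 21 as well. A match says only that the letters are in the window, and no binding was measured.

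**Figure D5:**
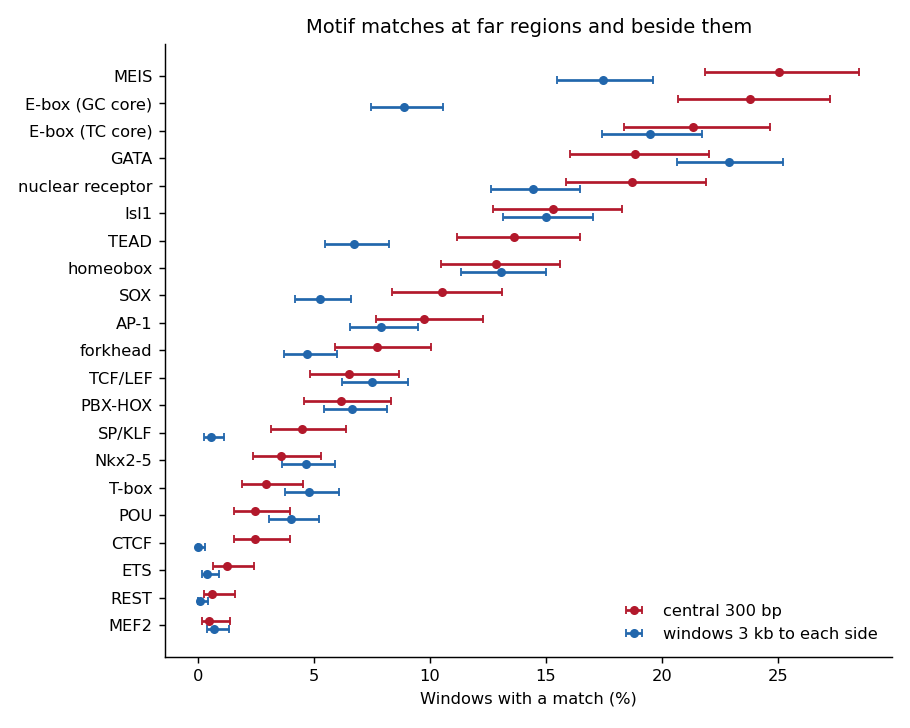
Share in percent of windows with a match to each of 21 motifs on either strand, in the central 300 bp of the 647 far regions (red) and in the 1294 windows 3 kb to each side (blue); bars are 95% Wilson intervals. MEIS, the E-box with a GC core, TEAD, SOX, SP/KLF and CTCF lie apart from their flanks, and GATA, homeobox and Isl1 do not.

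The CTCF motif was in 16 of 647 far centres (2.47%, 1.53 to 3.98) and in 0 of 1294 flank windows, which allows up to 0.30%. The share was 4.25% (3.31 to 5.45) at 100 to 300 kb and 4.91% (4.24 to 5.68) at 10 to 100 kb, and the latter lies above that of far regions. Over whole far regions there were 21 matches in 21 regions, 14 on the + and 7 on the - strand. The 16 within 150 bp of the midpoint are those already counted at the centre. The 3 shown above lie 40 bp before, 61 bp before and 37 bp after the midpoints of regions assigned to Lsamp, Mettl15 and Tenm4. These regions are 590, 689 and 578 bp wide, all narrower than the median far region.

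Far regions mostly lay alone. The median gap to the nearest region of any kind was 115865 bp (103356 to 136928), against 76146 bp at 100 to 300 kb and 33454 bp at 10 to 100 kb. It exceeded 100 kb for 362 (56.0%, 52.1 to 59.7) and for 42.5% (40.0 to 45.2) at 100 to 300 kb. Far regions up to 25 kb apart were joined, which gave 534 single regions, 52 pairs and 3 groups of 3. The groups lay upstream of Ncam2, a neural adhesion gene, over 33.3 kb, inside Diaph3, a formin, over 38.9 kb, and inside Macrod2 over 18.7 kb, where they were assigned to Flrt3.

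The autosomes held 33.4 ± 13.5 far regions each (SD, n = 19), from 9 on chromosome 19 to 62 on chromosome 2, and the X held 12. Their share of a chromosome's regions was 3.84 ± 1.25% (SD), from 1.75% on chromosome 6 to 6.08% on chromosome 14. Repeated sequence was counted because no filter on mapping quality is stated. More than 50% of the 31-mers of a region recurred in the genome for 27 far regions (4.17%, 2.88 to 6.00) and for 2.60% (1.88 to 3.57) at 100 to 300 kb, and 356 (55.0%) had no recurring 31-mer. Of the 19 far regions within 10 kb of a coding TSS, 6 were among the repeated ones.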

How the data were processed

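Groups follow the genotype that the labels give. According to the study's methods, the authors mapped ATAC-Seq reads to mm9 with Bowtie2. With SAMtools they dropped reads that were unmapped, had an unmapped mate or were not primary alignments. They removed duplicates with Picard 1.136 and called peaks with MACS, with a fixed shift size and no fitted model. Blacklisted peaks were removed and the 3 control libraries were intersected with bedtools 2.15. The deposited columns hold bp positions, gene symbols, RefSeq transcripts and signed distances to the assigned TSS. They hold no counts or scores, so no replicate error or test was possible and depth is unknown. The assignment tool is not given for these regions in the sources used here. The fixed shift size means that widths include tag extension, and no Tn5 shift is stated. No mapping quality filter is stated either, so repeated sequence can attract reads. No column was left unmapped (0 columns).

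Rows with identical positions were counted once, as 1-based closed positions. Sequence and GENCODE genes were those of NCBIM37, which is mm9. Gene names and promoter sequences came from RefSeq tables of GRCm38.p6, in which the transcripts of 602 of the 647 far regions were found. The midpoint set a region's place, with a TSS within 1 kb before exon, intron and intergenic. Shares carry 95% Wilson intervals, densities Poisson intervals and medians order-statistic intervals. The search for repeated 31-mers was tested on simulated data. Genes named were the 10 with the most far regions (14 with ties), the 5 farthest and 5 widest regions, the 5 fullest intervals, 2 regions on each side of the limit, the listed heart and pharyngeal regulators, and the top genes of each family. The results of 2 genes or regions that this rule would name are not reported here, and they remain in the counts. Others, such as those with starts inside far regions, were named after their values were seen, and the promoter search, GC rise and interval groups were added then. Members, gene lists and motifs were chosen with earlier results of these data known. Python 3.11.15, numpy 2.4.6, pandas 2.3.3, scipy 1.17.1, numba 0.67.0 and matplotlib 3.10.9 were used.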

Additional observations from a re-analysis of the deposited data

How the results depend on the processing

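The number of far regions was 1074 with a limit of 200 kb, 304 with 500 kb and 137 among the wider regions alone (the median width of the list or more). It stayed within 1.5 times the value reported with all rows as deposited (653), the nearest annotated coding TSS (475), noncoding assignments included (820) or repeated regions left out (620). With the limit at 500 kb, median width was 869.5 bp, GC 42.4%, the intergenic share 78.3% and the share of transcription factor genes 3.03%. GC was 46.7% over the central 300 bp. The density above 300 kb was 0.379 per Mb for the wider regions alone, 1.86 with TSSs of all genes and 1.89 without repeated regions. Far regions in groups numbered 113 at 25 kb, 49 at 10 kb and 176 at 50 kb. Of 21 motifs 13 had a higher share than at 100 to 300 kb, whatever the size of the difference, and between 11 and 14 under the alternatives. As reported, the intervals of the 2 bands overlapped for all 21, so no motif was set apart from that band. The density without repeated regions and the motifs in regions with no higher GC at the centre were chosen after seeing the data. The causes were not tested. No paired analysis was possible because the list is 1 consensus in which no value carries a replicate number, and for the same reason no library could be left out. Unknown depth limits what the absence of a region can show.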

Other observations

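Some long intervals had no region in their core, the part more than 300 kb from both ends. Of 133 intervals between coding TSSs with at least 1000 kb of core, 20 had no region in it, and their median GC was 37.3% against 37.6% in the 113 with one. The longest lay between the cadherin genes Cdh6 and Cdh9 on chromosome 15, with 3004 kb of core and 3 regions elsewhere in the interval. It was followed by those of Epha7 to Map3k7 on chromosome 4 (2602 kb), Otol1 to Sis on chromosome 3 (2359 kb), which held 0 regions of any kind, and Svip to Luzp2 on chromosome 7 (2230 kb). Of the 7 far regions of Epha7, 2 lay in the Epha7 to Map3k7 interval outside its core, and 5 lay on the other side of the gene.

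The X chromosome had fewer regions per Mb of its cores than the autosomes, at 0.69 (0.41 to 1.07) against 2.02 (1.89 to 2.17). A core region was present in 12 of its 43 long intervals (27.9%, 16.7 to 42.7) and in 50.4% (46.5 to 54.2) of those on autosomes. Median GC of the long intervals was 37.5% on the X and 39.1% on autosomes, and its part in the difference was not tested. The sex of the embryos and the number of X copies are not given in the sources used here.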
